A study of Mus musculus with 20 samples.

Results

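The genes described here are 37 that carry glucose into the cell, through glycolysis and to lactate or glycogen, and each was found once among the 33495 genes of the RNA-seq table. They were matched by symbol to a fixed list, and all 37 passed the filter on low counts in each of 3 comparisons. The 20 libraries came from C57BL/6 mouse hearts in which Kmt2d, an H3K4 methyltransferase gene, was floxed and deleted by a Cre. Mutants were Cre; Kmt2d fl/fl; mTmG/+ and controls, called WT in the labels, were Cre; Kmt2d fl/+; mTmG/+, so every control also carried the Cre, the mTmG reporter and 1 floxed allele. Mesp1Cre is active from early mesoderm (E9.0 whole hearts, 4 mutants and 4 controls), Mef2cAHF::Cre in anterior heart field precursors (E11.5 right ventricle and outflow tract, 3 libraries titled mutant and 3 titled WT) and Tnnt2::Cre in myocardium (E11.5 whole hearts, 3 mutants and 3 controls). Stage and tissue therefore differ between the Cre lines, and whole hearts hold cells that a Cre does not reach.

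Glycolysis breaks glucose down to pyruvate in a chain of reactions, and most steps can be run by more than 1 isozyme, each from its own gene. Glucose enters through transporters, is trapped by hexokinase and is committed to the pathway by phosphofructokinase, which the PFKFB enzymes tune through a signalling sugar phosphate. Pyruvate is then reduced to lactate by lactate dehydrogenase or enters the mitochondrion through the pyruvate dehydrogenase (PDH) complex, which the PDH kinases switch off. The embryonic heart is known for its use of glucose and lactate, and the muscle isozymes of several steps replace the widely expressed ones as muscle matures. Many glycolytic genes are textbook targets of hypoxia-inducible factor 1 (HIF1).

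Library totals ran from 21727258 to 45341870 counted reads, and every member had at least 16 reads in every library. Values for single genes are CPM, read counts scaled to the TMM-adjusted size of each library, and levels of different genes are compared in FPKM, which also divides by gene length. That length is the exonic length listed for the whole gene, and the transcript expressed can be shorter. Orders and shares of isozymes by FPKM therefore rest on it. Mutant and control libraries were compared in each line by edgeR's quasi-likelihood F-test, and a gene was called at an adjusted p (FDR, Benjamini-Hochberg over all genes tested) below 0.05. The Mef2cAHF::Cre libraries carry conflicting labels, since the titles and genotypes call mutant the 3 libraries whose columns are named WT, and the reverse. Kmt2d, listed under its older symbol Mll2, had 190.0 ± 3.45 CPM in the libraries titled mutant and 153 ± 5.87 CPM in those titled WT (n = 3, SD), against 137 ± 7.57 and 158 ± 5.31 in Mesp1Cre (n = 4) and 112 ± 4.65 and 142 ± 20.7 in Tnnt2::Cre (n = 3). It was called higher in the libraries titled mutant of Mef2cAHF::Cre (FDR 0.0359) and was not called in Mesp1Cre (FDR 0.0764) or Tnnt2::Cre (FDR 0.327). These counts include exons outside the floxed part. Values for this line follow the titles, and by the column names every sign is the opposite one. Summed over 10 cardiomyocyte markers, every library held 14244 to 31900 CPM. Of these 10, 1 was called higher and 2 lower in Mesp1Cre mutants. In the Mef2cAHF::Cre libraries titled mutant 1 was called higher, and in Tnnt2::Cre 0 were called. Erythroid markers (17 genes in the table) summed to 2001 to 7858 CPM in Mesp1Cre mutants and 5592 to 18384 CPM in their controls, to 25959.6 to 49299 CPM in the Mef2cAHF::Cre libraries titled mutant and 7549 to 33167 CPM in those titled WT, and to 18832 to 126765 CPM and 99210.5 to 155666 CPM in Tnnt2::Cre mutants and controls. Of these markers 6 were called lower in Mesp1Cre mutants, 2 higher in the Mef2cAHF::Cre libraries titled mutant and 0 in Tnnt2::Cre. Among the Tnnt2::Cre mutants, replicate 1 stood at the top of that range, with the controls. All 4 Mesp1Cre mutants and 2 of their 4 controls were male by Y-linked genes. In bulk hearts, fewer cells of a type and less RNA per cell cannot be told apart.

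In Mesp1Cre hearts 23 of the 37 members rose in mutants and 0 fell past the threshold, whereas 6.17% of all 15883 genes tested were called higher and 5.29% lower. The median log2 fold change of the members was 0.60, beside -0.00 for all genes tested, and 33 of 37 were above 0. In 24 members mutants and controls were fully apart, without overlap, 22 of them higher in mutants (17.7% of all genes did not overlap). In Mef2cAHF::Cre 7 members were called, 4 lower and 3 higher in the libraries titled mutant, beside 2.85% of 16920 genes in either direction (1.81% higher and 1.04% lower), with a median of -0.20 (-0.01 for all genes). There 18 members did not overlap (24.0% of all genes), 5 of them higher in the libraries titled mutant. By the column names the same genes give 4 rises and 3 falls. In Tnnt2::Cre 1 member fell and 0 rose past the threshold, beside 0.293% of 17045 genes (0.0763% higher and 0.217% lower), although the members' median was 0.41 (0.00 for all genes) and 28 of 37 lay above 0. At an unadjusted p below 0.05 that line held 24 members, 21 of them higher (11.9% of all genes passed that p in either direction), and 14 did not overlap, 11 of them higher in mutants (17.1% of all genes).

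**Figure D1:**
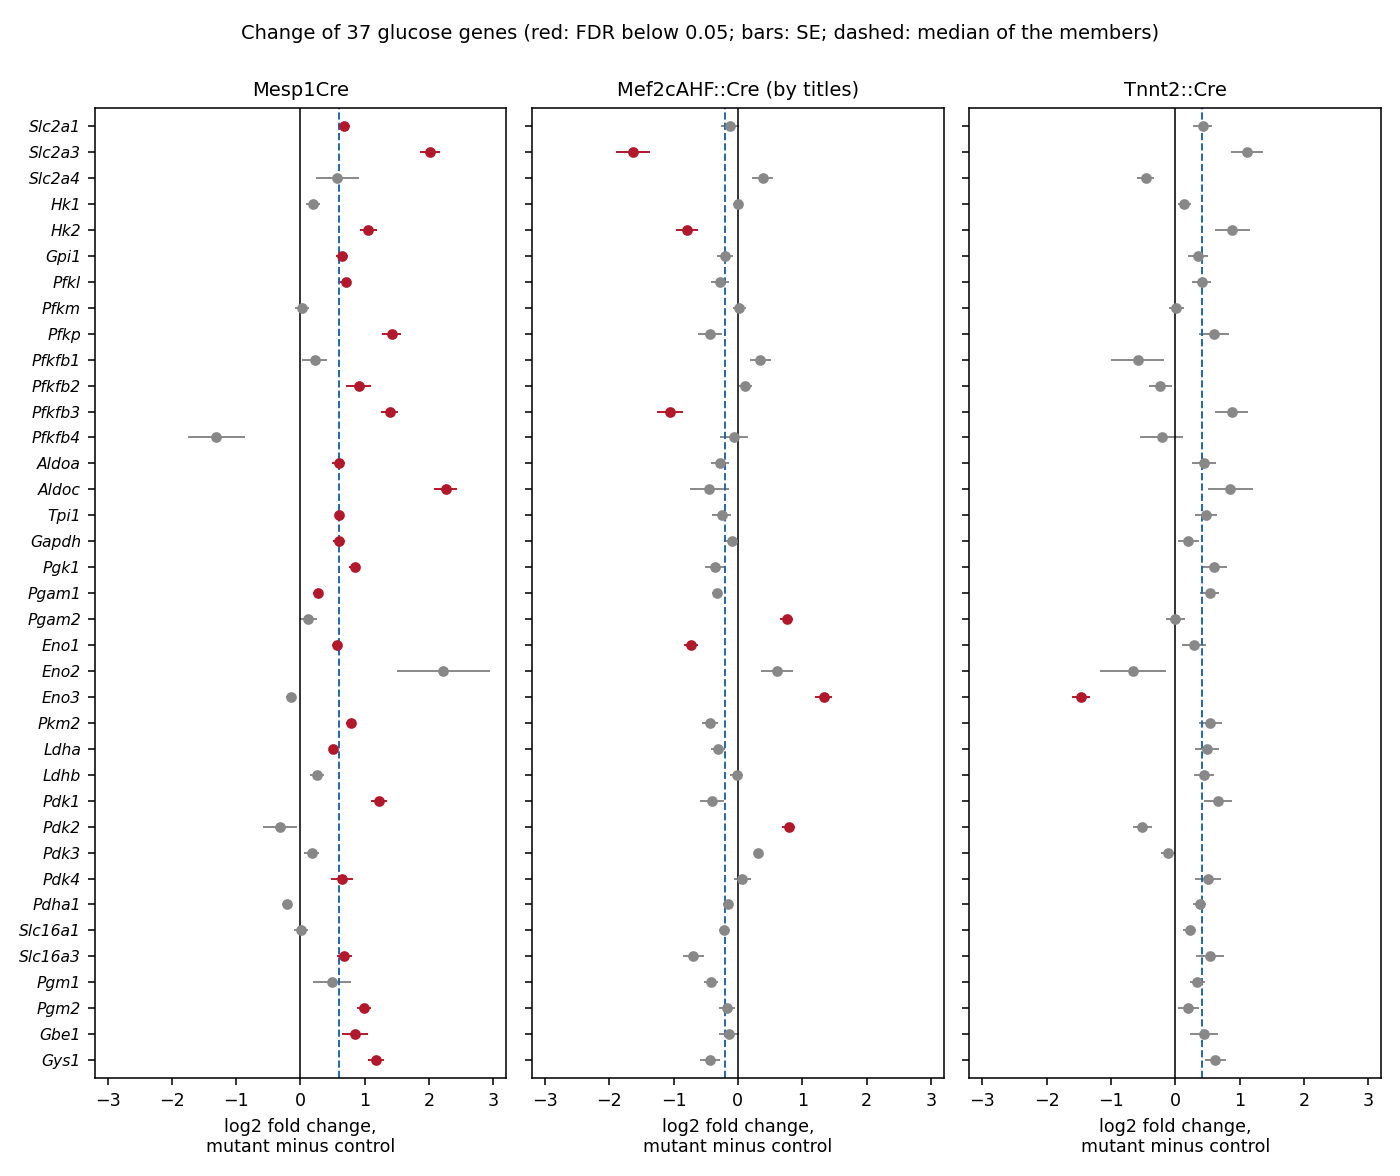
Log2 fold change of mutant over control (x axis) for the 37 members (y axis, in the order of the pathway) in Mesp1Cre, Mef2cAHF::Cre and Tnnt2::Cre, with SE bars, red points for FDR below 0.05 and a dashed line at the median of the members. The medians stand at 0.60, -0.20 and 0.41, with 23, 7 and 1 red points, and the sign of the middle panel turns over when the column names are followed.

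Slc2a3, Hk2, Pfkfb3 and Eno1 were called in Mesp1Cre and Mef2cAHF::Cre, and Eno3 in Mef2cAHF::Cre and Tnnt2::Cre. In mm9, Slc2a3 (ENSMUSG00000003153) lies on chromosome 6 from 122677843 to 122692537, Hk2 (ENSMUSG00000000628) on chromosome 6 from 82675041 to 82724453, Pfkfb3 (ENSMUSG00000026773) on chromosome 2 from 11393057 to 11423728, Eno1 (ENSMUSG00000063524) on chromosome 4 from 149610830 to 149622988 and Eno3 (ENSMUSG00000060600) on chromosome 11 from 70470704 to 70476015. The 250 bases before their transcription starts are shown because these members moved together or against each other. They were taken from RefSeq on GRCm38.p6 and run 5′ to 3′ along the gene, and where RefSeq lists several starts the one nearest to the gene's start in the table was taken, and capitals mark the core letters bound by HIF1, ACGTG or GCGTG, on either strand (CACGT and CACGC on the printed strand).
Hk2, chr6:82774455-82774704, minus strand: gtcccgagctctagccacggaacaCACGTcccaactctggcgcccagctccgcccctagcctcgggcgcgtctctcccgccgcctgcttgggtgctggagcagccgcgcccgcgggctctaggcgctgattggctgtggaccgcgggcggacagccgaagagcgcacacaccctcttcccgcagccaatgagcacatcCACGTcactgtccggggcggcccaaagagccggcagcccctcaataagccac
Pfkfb3, chr2:11502091-11502340, minus strand: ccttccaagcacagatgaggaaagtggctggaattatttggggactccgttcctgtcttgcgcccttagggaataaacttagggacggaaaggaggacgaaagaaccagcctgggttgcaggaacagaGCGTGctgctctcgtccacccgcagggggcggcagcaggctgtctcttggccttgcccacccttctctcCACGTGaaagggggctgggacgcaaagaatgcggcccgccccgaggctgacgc
Eno1, chr4:150236458-150236707, plus strand: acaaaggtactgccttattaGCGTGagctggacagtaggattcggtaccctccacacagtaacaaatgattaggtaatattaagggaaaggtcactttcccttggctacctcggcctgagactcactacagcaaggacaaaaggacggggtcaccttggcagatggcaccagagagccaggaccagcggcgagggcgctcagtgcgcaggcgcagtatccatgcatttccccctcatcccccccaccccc
Eno3, chr11:70656926-70657175, plus strand: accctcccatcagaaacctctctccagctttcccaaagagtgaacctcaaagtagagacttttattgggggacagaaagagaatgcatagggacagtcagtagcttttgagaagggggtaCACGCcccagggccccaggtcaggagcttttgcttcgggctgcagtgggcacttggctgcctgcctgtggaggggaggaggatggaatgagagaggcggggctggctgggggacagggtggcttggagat
Hk2 held ACGTG at 2 places, Pfkfb3 held GCGTG once and the palindrome CACGTG once, which reads ACGTG on both strands, and Eno1 and Eno3 each held GCGTG once. Of the 35 members matched by symbol and chromosome, 26 (74.3%) had either motif in these 250 bases, compared with 38.6% of all 32851 promoters listed, and 13 (37.1%) had ACGTG, compared with 16.6%. Slc2a3 and Slc2a4 had no entry. Promoters were not matched for base composition, so these shares are a description of letters. Of the members called higher in Mesp1Cre, Gpi1, Aldoa, Tpi1, Pkm2, Gbe1 and Gys1 had neither motif, and the others matched had at least 1. Of those not called there, Hk1, Pgam2 and Eno2 had neither. Pfkm, Pfkfb1, Pfkfb4, Eno3, Ldhb, Pdk2, Pdk3, Pdha1, Slc16a1 and Pgm1 were not called there and had at least 1. A link between motif and change was not tested.

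Of the glucose transporter genes, 2 of 3 rose in Mesp1Cre mutants. Slc2a3, which encodes the high-affinity transporter GLUT3, had 817, 598, 613 and 576 CPM in mutants against 178, 163, 191 and 112 CPM in controls (log2 fold change 2.02, SE 0.16, FDR 1.55e-05). Slc2a1, which encodes the widespread transporter GLUT1 and was the most abundant of the 3 in control hearts, had 1801, 1607, 1854 and 1553 CPM in mutants against 1123, 1216, 984 and 943 CPM in controls (log2 fold change 0.68, SE 0.09, FDR 0.000526). Neither gene overlapped between the groups. Slc2a4, the insulin-responsive transporter of muscle, stood at 9.17, 6.81, 7.93 and 4.57 CPM in mutants against 6.75, 5.79, 4.56 and 2.06 CPM in controls, with overlapping groups and an FDR of 0.307. At the trapping step 1 of 2 hexokinase genes rose. Hk2, the hexokinase of muscle and of growing tissue, had 264, 207, 248 and 172 CPM in mutants against 120.1, 114, 87.3 and 108 CPM in controls (log2 fold change 1.05, SE 0.13, FDR 0.00034), while Hk1, the hexokinase of most adult tissues, overlapped at 159, 126, 177 and 144 CPM in mutants against 129.7, 151, 129 and 122 CPM in controls (log2 fold change 0.19, FDR 0.282). Megakaryocyte and platelet markers also differed in this line, with a sum over 8 genes of 51.3 to 229 CPM in mutants and 11.4 to 25.6 CPM in controls, 3 of 7 tested called higher, and so did endothelial markers, at 821 to 938 CPM and 597 to 705 CPM, 4 of 10 called higher. Their part in the rise of Slc2a3 and Hk2, and of Pfkp and the other members described below, was not tested.

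At the committed step Pfkp, the platelet-type phosphofructokinase subunit, had 719.7, 448, 588 and 434 CPM in mutants against 197, 251, 181 and 191 CPM in controls (log2 fold change 1.42, SE 0.15, FDR 0.000124), and the lowest mutant stood well above the highest control. Pfkl, the liver-type subunit, had 189.7, 154, 173 and 176 CPM in mutants against 114, 110.3, 101 and 101 CPM in controls (log2 fold change 0.70, SE 0.08, FDR 0.000245). By FPKM, though not by CPM, Pfkl was the most abundant of the 3 in controls, with 4395 bases of length against 9126 for Pfkp. Pfkm, the muscle-type subunit, lay between 31.9 and 39.7 CPM in all 8 libraries, with a log2 fold change of 0.03 (FDR 0.912). Pfkfb3, a PFKFB gene whose enzyme makes the activator of phosphofructokinase, had 113, 105, 86.2 and 75.0 CPM in mutants against 41.0, 34.3, 35.2 and 34.6 CPM in controls (log2 fold change 1.39, SE 0.13, FDR 4.07e-05). Pfkfb2, the heart-type PFKFB gene and, by FPKM though not by CPM, the most abundant of its family in controls, had 65.3, 44.2, 39.6 and 57.4 CPM in mutants against 26.6, 22.6, 22.9 and 38.2 CPM in controls (log2 fold change 0.90, SE 0.19, FDR 0.0101). With the erythroid content of each library, the mean log2 CPM of the erythroid markers, as a covariate, its log2 fold change was 0.97 and its FDR 0.0788. Pfkfb1 overlapped between the groups (log2 fold change 0.22, FDR 0.502). Pfkfb4 went the other way without passing the test, at 0.947, 3.07, 0.701 and 2.49 CPM in mutants against 4.71, 3.23, 4.07 and 5.97 CPM in controls (log2 fold change -1.31, FDR 0.0757), and was the scarcest member of its family.

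Between glucose phosphate isomerase and pyruvate kinase, leaving aside phosphofructokinase, the main gene of each of 8 steps rose. Gpi1, Aldoa, Tpi1, Gapdh, Pgk1, Pgam1, Eno1 and Pkm2, which carry the sugar phosphate from isomerase to pyruvate kinase, rose by log2 0.27 to 0.84, with FDRs from 3.16e-05 to 0.0258, and none overlapped between the groups. Pgk1, phosphoglycerate kinase, had 1197, 1003, 1137 and 1180.2 CPM in mutants against 648, 692, 539.8 and 640.0 CPM in controls. Pkm2, the table's symbol for the pyruvate kinase gene of most tissues, had 1200.4, 1026, 1071 and 1109 CPM in mutants against 638, 682, 588 and 651 CPM in controls (log2 fold change 0.78, SE 0.07, FDR 3.16e-05). Aldoa, the main aldolase, had 1382, 1032, 1143 and 1064 CPM in mutants against 832, 788, 687 and 759 CPM in controls (log2 fold change 0.59, SE 0.09, FDR 0.00185). Aldoc, the brain-type aldolase, started from a far lower level and had the largest rise of all members called, with 24.5, 23.9, 20.5 and 16.8 CPM in mutants against 4.26, 4.03, 5.4 and 4.24 CPM in controls (log2 fold change 2.26, SE 0.18, FDR 1.55e-05). Pgam1, the main phosphoglycerate mutase, had 1138, 1143, 1155 and 1219.6 CPM in mutants against 1011, 1022, 849 and 976 CPM in controls (log2 fold change 0.27, SE 0.07, FDR 0.0258), and with erythroid content as a covariate its log2 fold change was 0.25 (FDR 0.168). Eno1, the widespread enolase, had 1188, 1393, 1279.8 and 1378 CPM in mutants against 805, 837, 907 and 991 CPM in controls (log2 fold change 0.57, SE 0.08, FDR 0.000822). The muscle isozymes of these last steps, Pgam2 and Eno3, had log2 fold changes of 0.12 and -0.15 (FDR 0.595 and 0.263), and both overlapped. Eno2, the neuronal enolase, had 7.71, 2.76, 4.47 and 46.0 CPM in mutants against 3.22, 3.15, 1.81 and 4.9 CPM in controls, so that 1 mutant library carried most of its log2 fold change of 2.22 (FDR 0.0651).

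At the fate of pyruvate, Ldha, the subunit that favours lactate formation, had 2077, 2016, 2105 and 2040.5 CPM in mutants against 1493, 1497, 1300.3 and 1513 CPM in controls (log2 fold change 0.51, SE 0.06, FDR 0.000387), and Ldhb had a log2 fold change of 0.25 with an FDR of 0.154. Slc16a3, the lactate exporter MCT4, had 179, 137, 148 and 135 CPM in mutants against 98.4, 110.4, 76.5 and 87.6 CPM in controls (log2 fold change 0.68, FDR 0.00339), and with erythroid content as a covariate its log2 fold change was 0.47 (FDR 0.0549). Slc16a1, which encodes the lactate transporter MCT1 and was the more abundant of the pair in controls, had 169, 149, 159 and 117 CPM in mutants against 147, 167, 126 and 149 CPM in controls (log2 fold change 0.01, SE 0.11, FDR 0.974), with overlapping groups. Pdk1, a PDH kinase, had 422, 317, 332 and 341 CPM in mutants against 155, 184, 120.1 and 150.0 CPM in controls (log2 fold change 1.21, SE 0.12, FDR 7.88e-05). Pdk3, by FPKM though not by CPM the most abundant PDH kinase of these control hearts, had 117, 88.1, 81.4 and 87.8 CPM in mutants against 72.5, 92.9, 82.2 and 83.5 CPM in controls (log2 fold change 0.18, FDR 0.368), and those groups overlapped. Pdk4, the kinase induced by fasting, was called at 0.65 (FDR 0.026), but not with erythroid content as a covariate (log2 fold change 0.64, FDR 0.159), and Pdk2 was not called (-0.32, FDR 0.475). Pdha1, the catalytic subunit that these kinases phosphorylate, was lower in every mutant library but missed the threshold (log2 fold change -0.21, FDR 0.0883).

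Of the genes that store glucose, Gys1, the glycogen synthase of muscle and most tissues, had 199, 129, 162 and 139 CPM in mutants against 77.3, 72.2, 61.9 and 66.5 CPM in controls (log2 fold change 1.18, SE 0.13, FDR 0.000124). Pgm2, which lies on chromosome 4 from 99602019 to 99659899 and is the phosphoglucomutase gene that RefSeq calls Pgm1, had 196, 148, 169.6 and 157 CPM in mutants against 81.7, 98.3, 77.2 and 81.1 CPM in controls (log2 fold change 0.99, SE 0.10, FDR 0.000107). Both genes were without overlap. Gbe1, the glycogen branching enzyme, was called (log2 fold change 0.85, FDR 0.0159), although 1 mutant stood at 27.6 CPM below the highest control at 28.7 CPM, and with erythroid content as a covariate its log2 fold change was 0.45 (FDR 0.351). The gene listed as Pgm1 was not called (0.49, FDR 0.315). With that covariate 18 of the 37 members were called, all higher, beside 2.58% of all genes (1.77% higher), and the 5 lost calls were Pfkfb2, Pgam1, Pdk4, Slc16a3 and Gbe1. With sex as a covariate 19 were called, all higher, beside 5.66% of all genes (3.27% higher).

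**Figure D2:**
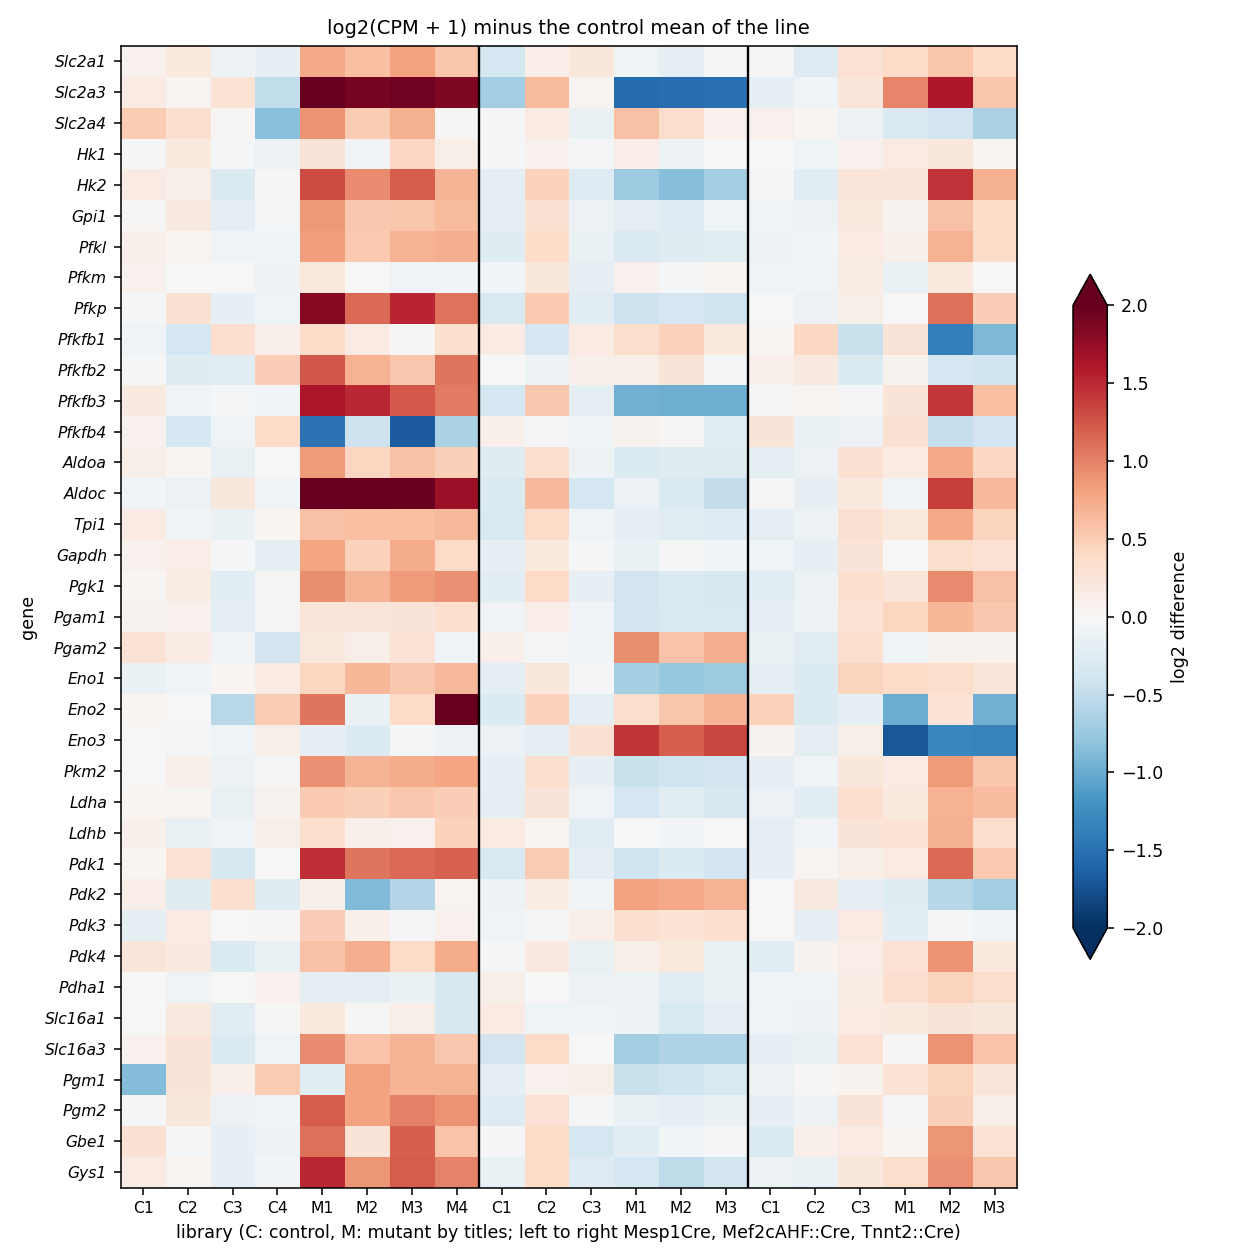
Each of the 37 members (rows) in each of the 20 libraries (columns), as log2(CPM + 1) minus the mean of the control libraries of its line, with colours that saturate at -2 and 2. The 4 Mesp1Cre mutants are red through most rows, the Mef2cAHF::Cre libraries titled mutant are blue in Slc2a3, Hk2, Pfkfb3 and Eno1 and red in Eno3, and Tnnt2::Cre mutant 1 is paler than mutants 2 and 3 in most rows.

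The pathway around the members, 74 further genes in the table of which 61 were tested in Mesp1Cre, was split: 10 were called higher and 7 lower, where 6.17% and 5.29% of all genes were, with a median log2 fold change of 0.06. The 4 largest changes among those called were all rises. Epm2a, the glycogen phosphatase laforin, had 6.57 ± 0.75 CPM across the 4 mutants, against 1.58 ± 0.906 for controls (SD; log2 fold change 2.04, FDR 0.00715). Ppp1r3c, which targets protein phosphatase 1 to glycogen, rose by log2 1.43 (FDR 7.3e-05), Pcx, pyruvate carboxylase, by 1.21 (FDR 0.0226) and Pygl, the liver glycogen phosphorylase, by 1.18 (FDR 3.43e-05). Glycogen and gluconeogenesis genes made up 9 of the 17 calls, of 24 tested, 7 of them higher. Of 8 genes tested from the list for the pentose phosphate pathway, 2 were called and both were lower. They were Taldo1 and 9630033F20Rik, an older symbol of the regulator Tigar, and were named after their values were seen. In Mef2cAHF::Cre 1 of 64 such genes was called, beside 2.85% of all genes: Pygm, the muscle glycogen phosphorylase, was higher in the libraries titled mutant (log2 fold change 0.87, FDR 0.00472). In Tnnt2::Cre 0 of 64 passed edgeR's test, beside 0.293% of all genes.

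In Mef2cAHF::Cre the 7 called members fell into opposite sets. By the titles, Slc2a3 had 47.7, 48.2 and 49.2 CPM in the libraries titled mutant against 86.7, 218 and 146 CPM in those titled WT (log2 fold change -1.63, SE 0.27, FDR 0.0193). Hk2 had 69.3, 63.3 and 71.8 CPM in the libraries titled mutant against 100.0, 158 and 96.3 CPM in those titled WT (log2 fold change -0.79, SE 0.17, FDR 0.0472). Pfkfb3 had 25.2, 25.0 and 24.8 CPM in the libraries titled mutant against 38.8, 73.1 and 44.0 CPM in those titled WT (log2 fold change -1.06, SE 0.20, FDR 0.033). For all 3, the libraries titled mutant lay close together and the spread was among those titled WT, where replicate 2 was the highest. Eno1 had 339.9, 319 and 328 CPM in the libraries titled mutant against 474, 632 and 531 CPM in those titled WT (log2 fold change -0.73, SE 0.10, FDR 0.0109). The members called in the other direction were Eno3, Pgam2 and Pdk2. Eno3, the muscle enolase, had 85.8, 73.0 and 80.8 CPM in the libraries titled mutant against 28.9, 27.4 and 39.0 CPM in those titled WT (log2 fold change 1.33, SE 0.13, FDR 0.00209). Pgam2, the muscle phosphoglycerate mutase, had 96.4, 74.9 and 83.3 CPM in the libraries titled mutant against 53.8, 48.4 and 48.0 CPM in those titled WT (log2 fold change 0.76, SE 0.10, FDR 0.00733). Pdk2, a PDH kinase prominent in heart and other muscle, had 29.9, 28.9 and 27.6 CPM in the libraries titled mutant against 15.4, 18.6 and 16.02 CPM in those titled WT (log2 fold change 0.79, SE 0.10, FDR 0.00555). Read by the column names, the same values give rises of Slc2a3, Hk2, Pfkfb3 and Eno1 by 1.63, 0.79, 1.06 and 0.73 and falls of Eno3, Pgam2 and Pdk2 in the libraries named mutant.

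None of these 7 overlapped between the groups. Among the isozymes most abundant by FPKM in the libraries titled WT, Hk2, Pfkfb3 and Eno1 were called. Slc2a1, Pfkp, Pgam1, Aldoa, Ldha, Pdk1, Slc16a1 and Pgm2 were not. Slc2a1 overlapped, with 478, 450.4 and 493 CPM in the libraries titled mutant against 395, 556 and 593 CPM in those titled WT (log2 fold change -0.12, SE 0.14, FDR 0.711). Pfkp had 189.9, 199 and 192 CPM in the libraries titled mutant against 205, 365 and 215 CPM in those titled WT (log2 fold change -0.43, SE 0.19, FDR 0.279), again with replicate 2 of those titled WT the highest. Pgam1 had 477, 502 and 499.9 CPM in the libraries titled mutant against 587, 674 and 596 CPM in those titled WT (log2 fold change -0.33, SE 0.08, FDR 0.0583). Pgam1 and Pfkp, like Slc16a3 (log2 fold change -0.69, FDR 0.0654) and Pdk3 (0.32, FDR 0.0575), missed the threshold without overlap between the groups. With erythroid content as a covariate the log2 fold changes of Slc2a3, Hk2 and Pfkfb3 were -1.12 (FDR 0.0732), -0.35 (FDR 0.169) and -0.57 (FDR 0.142), the FDRs of Eno1, Eno3, Pgam2 and Pdk2 stayed below 0.05, and the median of the members was 0.040. Erythroid markers were higher in the libraries titled mutant, with 2 of 17 called. Megakaryocyte and platelet markers summed to 60.7 to 115 CPM in those libraries and 233 to 589 CPM in those titled WT, with 6 of 8 called lower, and their part in the difference of Slc2a3 was not tested. Cardiomyocyte markers summed to 19193 to 20109 CPM and 14244 to 19018 CPM. Without any 1 of the libraries titled mutant, 3 members were called, Eno3, Pgam2 and Pdk2 (0.435% to 0.853% of all genes), whereas without 1 of those titled WT 8 or 9 were (1.89% to 3.83% of all genes).

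In Tnnt2::Cre the called member was Eno3, with 28.1, 37.1 and 36.3 CPM in mutants against 98.02, 81.6 and 100.4 CPM in controls (log2 fold change -1.46, SE 0.13, FDR 0.00532), and each mutant was well below each control. The FDR was 0.0581 without control replicate 3. Most other members were higher in mutants without passing the test. Slc2a3 had 121, 191 and 91.1 CPM in mutants against 54.7, 58.0 and 73.2 CPM in controls (log2 fold change 1.12, FDR 0.133), without overlap. Slc2a1 had 563, 630.2 and 563 CPM in mutants against 421, 361 and 526 CPM in controls (log2 fold change 0.42, FDR 0.333), also without overlap. Of these mutants replicate 2 was the highest in both transporter genes. Hk2 had 58.7, 137 and 82.2 CPM in mutants against 48.5, 42.8 and 58.8 CPM in controls (log2 fold change 0.89, FDR 0.269). Pfkfb3 had 26.2, 59.6 and 33.4 CPM in mutants against 21.4, 22.4 and 21.1 CPM in controls (log2 fold change 0.88, FDR 0.262). Pdk1 had 135, 265 and 174 CPM in mutants against 107, 125 and 130.0 CPM in controls (log2 fold change 0.66, FDR 0.307). In these 3 genes mutant 2 was the highest library and mutant 1 the lowest mutant, within the control range for Hk2 and just above it for Pfkfb3 and Pdk1. Eno1, the main enolase, had 634, 614 and 569 CPM in mutants against 424, 399 and 657 CPM in controls (log2 fold change 0.30, FDR 0.578). Pgam1, the main phosphoglycerate mutase, had 715, 841 and 768 CPM in mutants against 466, 495 and 646 CPM in controls (log2 fold change 0.53, FDR 0.239). Without mutant replicate 1, the library with the erythroid level of a control, 14 members were called, 11 higher and 3 lower, beside 5.12% of all genes (1.80% higher). Those 11 were Slc2a3, Hk2, Pfkl, Pfkp, Pfkfb3, Aldoc, Pgk1, Pkm2, Pdk1, Slc16a3 and Gys1, with log2 fold changes from 0.54 (Pfkl) to 1.18 (Slc2a3), and the 3 lower ones were Eno3 (-1.35), Pfkfb1 (-1.26) and Pdk2 (-0.66). Megakaryocyte and platelet markers summed to 174 to 802 CPM in mutants and 199.5 to 357 CPM in controls of this line, with overlapping groups, and the part of other cell types in these differences was not tested. With DESeq2's Wald test on all 6 libraries, 8 members were called, 7 of them higher, beside 2.18% of all genes (1.00% higher). With erythroid content as a covariate, log2 fold changes were 0.80 (Slc2a3), 0.21 (Hk2), 0.27 (Pfkfb3) and 0.17 (Pdk1), none of them called. Eno3 stayed called at -1.70 (FDR 0.00023). Without mutant replicate 1, mutants had erythroid contents of 6.43 and 7.50 (mean log2 CPM), against 8.64 to 9.40 in controls. Genotype and blood content cannot be told apart in those 14 calls.

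**Figure D3:**
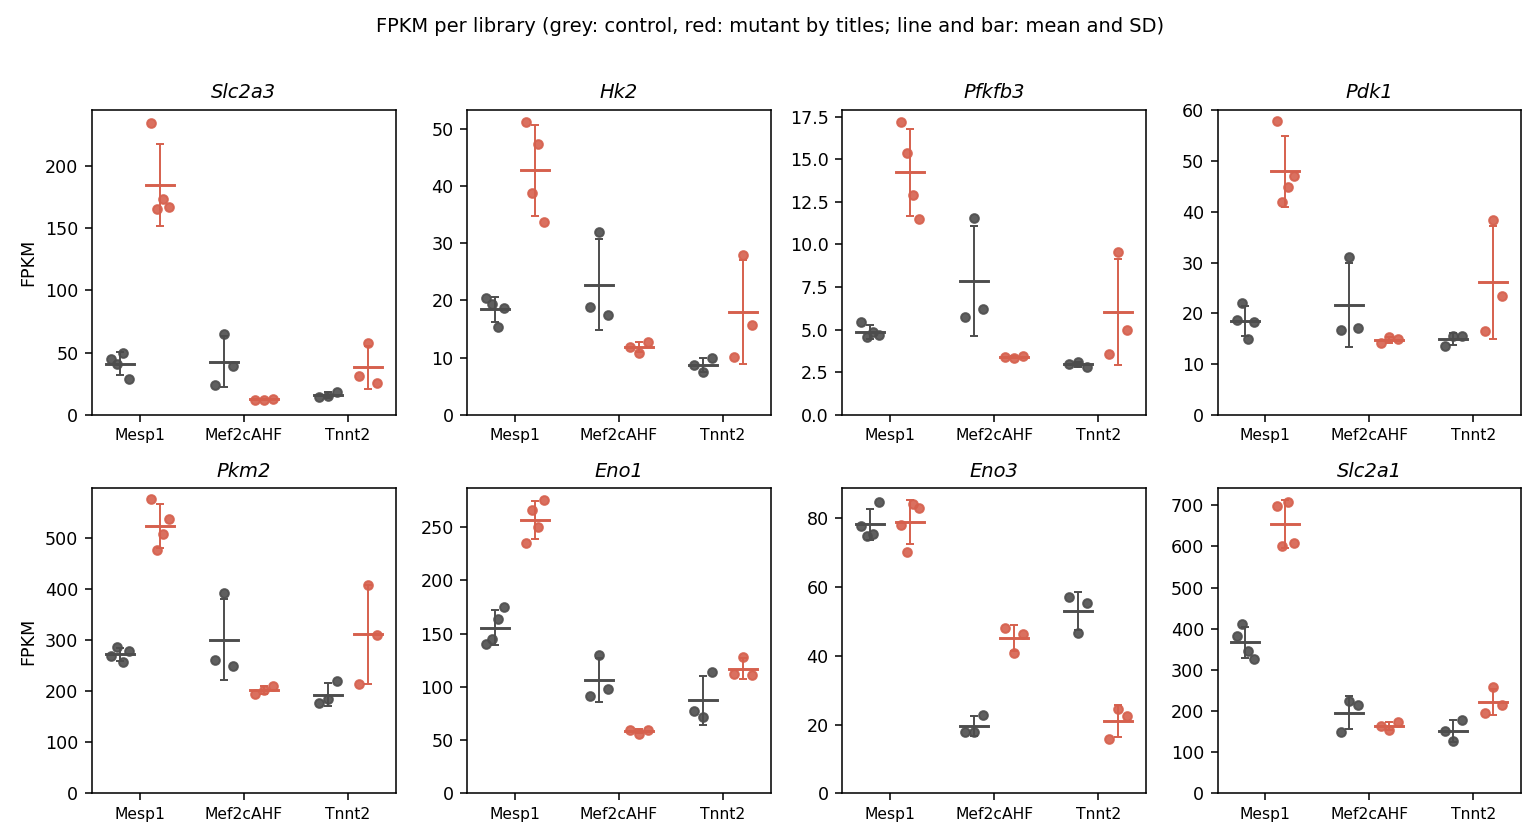
FPKM (y axis, from 0) of 8 members in every library of the 3 Cre lines, controls in grey and mutants by title in red, with the mean as a line and the SD as a bar. Slc2a3, Hk2, Pfkfb3, Pdk1, Pkm2, Eno1 and Slc2a1 separate the groups of Mesp1Cre, and Eno3 separates those of Mef2cAHF::Cre and Tnnt2::Cre in opposite directions by the titles.

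In control hearts the main isozyme of a step was the same in each line for some families and not for others. Slc2a1 led the glucose transporters, at 367 ± 38.1 FPKM in Mesp1Cre controls, 196 ± 40.7 in the Mef2cAHF::Cre libraries titled WT and 152 ± 25.9 in Tnnt2::Cre controls, above Slc2a3 at 41.0 ± 9.15, 42.8 ± 20.7 and 15.97 ± 2.07. Aldoa, Pgam1, Eno1 and Ldha led theirs in every control group. By the column names the controls of Mef2cAHF::Cre are the libraries titled mutant, with 164 ± 9.67 FPKM of Slc2a1 and 12.4 ± 0.398 of Slc2a3. There Hk1 (12.2 ± 0.999) was near Hk2 (11.8 ± 0.91), Pfkfb2 (3.89 ± 0.356) above Pfkfb3 (3.39 ± 0.0335) and Pdk3 (22.8 ± 0.855) above Pdk1 (14.8 ± 0.646), whereas in the libraries titled WT Hk2 (22.7 ± 7.97), Pfkfb3 (7.83 ± 3.22) and Pdk1 (21.6 ± 8.28) had the highest means of their families. Hk2 was above Hk1 in Mesp1Cre controls (18.5 ± 2.19 and 15.2 ± 1.31 FPKM) and below it in Tnnt2::Cre controls (8.73 ± 1.23 and 15.0 ± 0.69). Among the phosphofructokinases the order in Tnnt2::Cre controls was Pfkl (22.8 ± 1.61), Pfkm (20.5 ± 1.27) and Pfkp (14.5 ± 0.921), whereas Pfkm was the lowest in Mesp1Cre controls at 11.7 ± 0.611. Levels in different lines were set beside each other and not tested. These orders are by FPKM, and some turn over by CPM. In Mesp1Cre controls Hk1 had 133 CPM and Hk2 107 CPM, and Pfkp had 205 CPM and Pfkl 106 CPM. Slc2a1, Aldoa, Pgam1, Eno1 and Ldha led their families by CPM also, in every control group.

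Isoform choice was described as the share of each member in the summed FPKM of its family, 23 shares a line, with a two-sided exact permutation test over libraries. In Mesp1Cre 15 shares differed, each at the smallest p that 4 against 4 libraries allow (exact p = 0.0286, adjusted p = 0.0438 over 23 shares). Shares of a family add up to its whole, so a rise of 1 isozyme lowers others and the 15 are not independent results. The adjusted p also rests on how many shares tie at that smallest p. Pdk1 rose to 51.0 ± 1.44% of the PDH kinases from 33.6 ± 3.46% and Pdk3 fell to 40.9 ± 1.48% from 55.7 ± 3.47%. Pfkp went from 38.0 ± 3.09% to 53.1 ± 4.54% of the phosphofructokinases while Pfkm went from 20.9 ± 1.47% to 11.3 ± 1.24%. Hk2 went from 54.8 ± 3.6% to 68.7 ± 3.35% of the hexokinases, Slc2a3 from 9.99 ± 1.95% to 21.9 ± 2.26% of the glucose transporters, Pfkfb3 from 35.4 ± 5.02% to 48.0 ± 6.13% of the PFKFB genes and Slc16a3 from 46.4 ± 1.63% to 58.2 ± 2.58% of the lactate transporters (SD, n = 4). Aldoc remained a minor aldolase at 1.55 ± 0.258%, from 0.497 ± 0.11%. The share of Ldhb did not differ at this threshold (6.77 ± 0.827% in mutants and 7.98 ± 0.67% in controls, exact p = 0.0857).

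The shares of Eno1 and Eno3 among the enolases did not overlap between the groups in any of the 3 lines, while that of Eno2 overlapped in Mesp1Cre and Tnnt2::Cre. The size of these shares depends on the lengths used, 5379 bases for Eno1 and 1689 for Eno3. Before division by length, Mesp1Cre controls had a mean of 885 CPM of Eno1 and 140 CPM of Eno3. The percentages below are therefore not a measured composition of the enzyme. In Mesp1Cre mutants Eno3 held 24.8%, 20.8%, 25.1% and 22.5% of the summed enolase FPKM, against 35.6%, 34.0%, 31.5% and 32.6% in controls. In Tnnt2::Cre it held 12.4%, 16.04% and 16.8% in mutants and 42.1%, 39.3% and 32.6% in controls. In Mef2cAHF::Cre it held 44.2%, 41.7% and 43.4% in the libraries titled mutant and 16.1%, 12.1% and 18.8% in those titled WT, the opposite order, which becomes the order of the other lines by the column names. In each line the groups did not overlap, and with 3 against 3 libraries the exact test cannot go below p = 0.1. In Mesp1Cre the called gene was Eno1 (log2 fold change 0.57) and Eno3 was not called (-0.15), and in Tnnt2::Cre the called gene was Eno3 (-1.46) and Eno1 was not (0.30). The change of Eno3 in counts differed between these lines by 1.30 (SE 0.17, FDR 0.000765) on the log2 scale. In Mef2cAHF::Cre both genes were called, in opposite directions. Pgam2 took 25.5 ± 2.94% of the phosphoglycerate mutases in the libraries titled mutant and 13.9 ± 1.47% in those titled WT, and 31.9 ± 1.08% and 40.3 ± 1.54% in Tnnt2::Cre mutants and controls (SD, n = 3). In all, 14 of 23 shares in Mef2cAHF::Cre and 10 of 23 in Tnnt2::Cre were without overlap. Levels of 24.0% and 17.1% of all genes did not overlap in these lines, and no such rate was worked out for shares. Without mutant replicate 1 of Tnnt2::Cre 17 of 23 shares were without overlap, where leaving out a library can only add to the count.

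**Figure D4:**
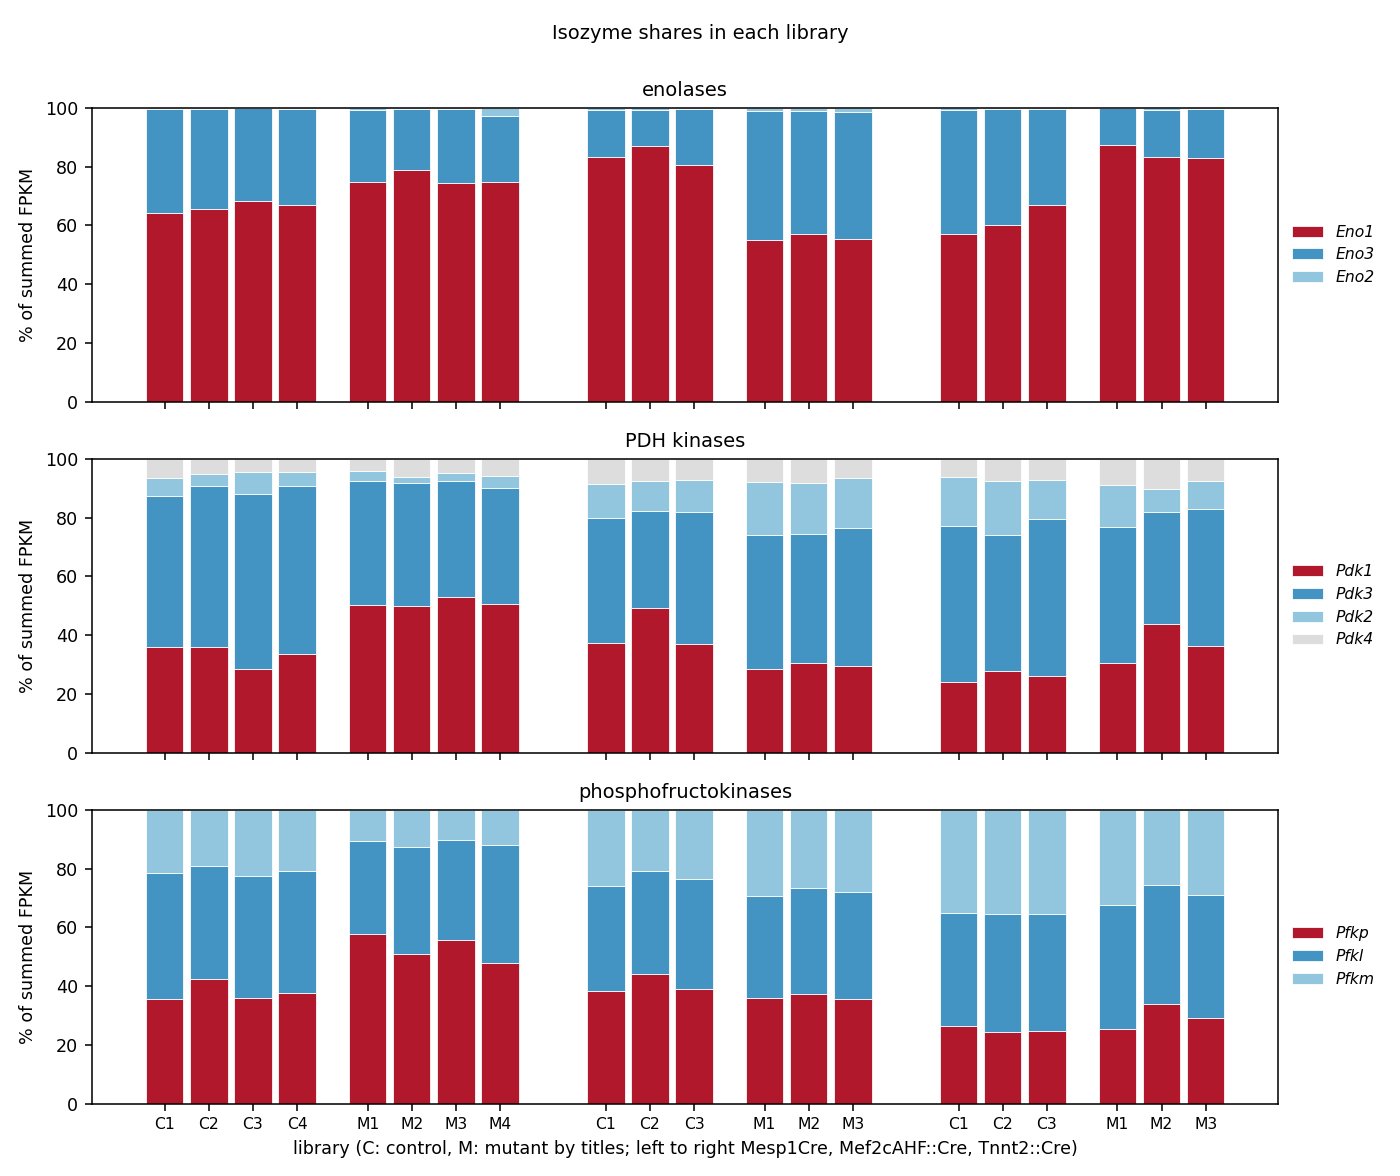
Share of each isozyme in the summed FPKM of the enolases, PDH kinases and phosphofructokinases (y axis, percent) in each of the 20 libraries (x axis, controls C and mutants by title M). Eno3 ran from 31.5% to 35.6% in Mesp1Cre controls and from 20.8% to 25.1% in mutants, and in the other lines from 12.1% to 18.8% in the libraries titled WT of Mef2cAHF::Cre and from 12.4% to 16.8% in Tnnt2::Cre mutants.

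Whether a change differed between lines was tested as an interaction in 1 fit of all 20 libraries. Mesp1Cre and Tnnt2::Cre differed in 4 members, beside 3.04% of 18391 genes. On the log2 scale, the change in Mesp1Cre minus that in Tnnt2::Cre was 1.12 (SE 0.27, FDR 0.0309) for Pfkfb2 and 0.77 (SE 0.20, FDR 0.041) for Pgm2, which rose in Mesp1Cre. For Eno3 it was the 1.30 given above, with the called fall in Tnnt2::Cre. For Pdha1 it was -0.60 (SE 0.11, FDR 0.0066), as the gene was lower in Mesp1Cre mutants (log2 fold change -0.21) and higher in Tnnt2::Cre mutants (0.38) without a call in either. By the titles, Mesp1Cre and Mef2cAHF::Cre differed in 23 members (11.3% of all genes), 20 of them with the higher change in Mesp1Cre, and Tnnt2::Cre and Mef2cAHF::Cre differed in 13 (3.19%). By the column names these counts were 4 (1.63%) and 0 (0% of all genes). The 4 were Aldoc, at 1.80 (SE 0.43, FDR 0.039), Pgam2, at 0.87 (SE 0.20, FDR 0.0387), Eno3, at 1.17 (SE 0.17, FDR 0.00243), and Pgm2, at 0.80 (SE 0.20, FDR 0.046), all with the higher change in Mesp1Cre. For Tnnt2::Cre against the column names edgeR gave 4 members at an unadjusted p below 0.05, beside 2.57% of all genes, and DESeq2 called 0, which does not show that the changes were equal. Of the 23 members called in Mesp1Cre, 22 were higher in Tnnt2::Cre mutants and 21 were lower in the Mef2cAHF::Cre libraries titled mutant, whatever their size. The same shares among all genes called higher in Mesp1Cre were not worked out, so these counts cannot be read as particular to the members.

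Counts of some members can be split with near-identical copies. Of the 100-base windows of the longest coding transcript, 94.2% for Pgk1, 93.7% for Pgam1, 87.2% for Gapdh, 85.0% for Eno1, 73.2% for Gpi1, 62.9% for Pkm2, 57.9% for Ldhb, 40.1% for Ldha and 37.7% for Tpi1 matched at least 98 of 100 bases elsewhere in mm9. These 9 members are uncertain to that extent, the share of Eno1 among the enolases included. Genes of the table at such copies held 18.5% as many reads as Gapdh, 6.64% as many as Eno1 and 3.73% as many as Pgam1, with less for the others. The remaining 28 members, Slc2a3, Hk2, Pfkp, Pfkfb3, Pdk1, Gys1 and Eno3 among them, had at most 10% of windows copied. In the GENCODE annotation of this build, 0 members shared exonic bases with another gene on their own strand and 11 did on the opposite one, up to 16.5% for Gpi1, and whether the counting used strand is not given in the sources used here.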

How the data were processed

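The study's RNA-seq of embryonic hearts was analysed from the table of all 20 libraries. The authors aligned reads to mm9 and counted them per gene with featureCounts, and the submitters' processing notes name TopHat2 2.0.8b and USeq 8.6.4. The deposited counts are not normalized, and the deposited FPKM equals count over gene length and column total. A further 20 columns of variance-corrected log2 counts were not used. How reads with several matches were counted is not given in the sources used here. Paper and labels differ on the library kit, and the labels' protocol text gives E11.5 for Mesp1Cre, where their age field and the paper give E9.0. Mesp1Cre mutants and controls of the same replicate number share a number in their descriptions, of unstated meaning. The labels call libraries replicates, so p-values measure the spread between these libraries.

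Counts were fitted per line with edgeR 4.0.16 (R 4.3.3): filterByExpr, TMM, quasi-likelihood F-test, Benjamini-Hochberg over all genes tested. SE is the size of the log2 fold change over the square root of F. Interactions used 1 fit of 6 groups, and shares used scipy 1.17.1. In 1 simulated set of counts for each line, expressed genes changed by log2 1 were recovered in 66.7% (Mesp1Cre), 87.3% (Mef2cAHF::Cre) and 83.3% (Tnnt2::Cre) of cases. Unchanged genes made up 1.26%, 8.25% and 3.19% of the calls there, in Mef2cAHF::Cre above the threshold of 0.05. The threshold holds for the average over many sets, which 1 set does not give. Alternatives were DESeq2 1.42.0, limma 3.58.1 on FPKM, other filters and scalings, blocks, covariates, thinning and left-out libraries. Copies were mapped with minimap2 2.31. Full values are given for the 8 largest called changes per line, calls against the majority direction and the main control isozyme of each family. The members and lists were chosen with earlier results of these data known.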

Additional observations from a re-analysis of the deposited data

Results flagged for a closer look

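In 6 of 74 groups of 4 Mesp1Cre libraries, 1 library stood apart from the other 3 by more than Dixon's 95% critical value for the gap over the range, where chance gives about 1 group in 20, or 5%. Slc2a3 stood at 817 CPM in mutant replicate 1 and at 576 to 613 CPM in the other mutants. Pgm1 stood at 9.86 CPM in the same library and at 19.1 to 21.0 CPM in the others. Eno2 stood at 46.0 CPM in mutant replicate 4 and at 2.76 to 7.71 CPM in the other mutants. Ldha, at 1300.3 CPM, and Aldoc, at 5.4 CPM, were apart in control replicate 3, and Pfkfb3 was in control replicate 1, at 41.0 CPM. Slc2a3, Ldha, Aldoc and Pfkfb3 were called without any 1 of the 8 libraries.

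The interaction test separated Mesp1Cre from Tnnt2::Cre in Eno3, Pfkfb2, Pgm2 and Pdha1, with differences of log2 fold change of 1.30, 1.12, 0.77 and -0.60. Mesp1Cre differed from Mef2cAHF::Cre read by the column names in Aldoc (1.80), Eno3 (1.17), Pgam2 (0.87) and Pgm2 (0.80). With the sample titles the same test separated Mesp1Cre from Mef2cAHF::Cre in 23 members and Tnnt2::Cre from Mef2cAHF::Cre in 13. The only check made of the labels of Mef2cAHF::Cre was Kmt2d, called higher in the libraries titled mutant (edgeR, FDR 0.0359). By qRT-PCR the paper reports less Kmt2d transcript in E11.5 mutants of this line than in heterozygous controls. Which of the labels is right was not settled.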

How the results depend on the processing

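Of the 23 calls in Mesp1Cre, 18 were kept under every alternative, as were 2 of 7 in Mef2cAHF::Cre (Eno3 and Pgam2) and 0 of 1 in Tnnt2::Cre, and 0 called members changed sign. On log2(FPKM + 0.1) and log2(FPKM + 1) the Mesp1Cre median was 0.77 and 0.75, where the median of all genes was itself 0.15 and 0.11. The number of Mef2cAHF::Cre members called was 12 by DESeq2's Wald test (6.14% of all genes), 16 with no filter beyond 1 count (4.43%) and 4 on log2(FPKM + 1) (1.5%), and that of Tnnt2::Cre was 8 by the Wald test (2.18%), 2 with no filter (0.465%) and 3 in the fit of all 20 libraries (0.446%). With erythroid content as a covariate the median turned to 0.040 in Mef2cAHF::Cre and was 0.16 in Tnnt2::Cre. With the same covariate the members that differed between lines numbered 10 for Mesp1Cre against Tnnt2::Cre (7.57% of all genes), 13 for Mesp1Cre against Mef2cAHF::Cre by the column names (5.08%, and 9 with no filter, 1.52%) and 5 for Tnnt2::Cre against Mef2cAHF::Cre by the titles (2.53%). The cause of these moves was not tested.

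With each replicate left out in turn, 21 to 25 members were called in Mesp1Cre, 3 to 9 in Mef2cAHF::Cre and 0 (without control replicate 3) to 14 (without mutant replicate 1) in Tnnt2::Cre, and the medians ran from 0.58 to 0.67, from -0.29 to -0.06 and from 0.27 to 0.53. Shares without overlap ran from 15 to 17, 14 to 18 and 11 to 17, a count that can only stay or rise when a library is left out and so says nothing of stability. Members that differed between lines numbered 2 to 7 for Mesp1Cre against Tnnt2::Cre (7 without Tnnt2::Cre mutant replicate 2 and 2 without Tnnt2::Cre mutant replicate 3, Tnnt2::Cre control replicate 2 or Mesp1Cre mutant replicate 1), 20 to 24 for Mesp1Cre against Mef2cAHF::Cre by the titles, and 7 (without the Mef2cAHF::Cre library titled mutant replicate 2) to 21 (without Tnnt2::Cre mutant replicate 1) for Tnnt2::Cre against Mef2cAHF::Cre by the titles, with 8 without Tnnt2::Cre mutant replicate 2, control replicate 1 or control replicate 2. By the column names they numbered 1 to 6 for Mesp1Cre against Mef2cAHF::Cre: 6 without the Mef2cAHF::Cre library titled WT replicate 2, 2 without Mesp1Cre control replicate 1, 3 or 4, and 1 without Tnnt2::Cre mutant replicate 3 or control replicate 1, Mesp1Cre mutant replicate 1 or 3, any Mef2cAHF::Cre library titled mutant, or the Mef2cAHF::Cre libraries titled WT replicate 1 or 3. By the column names, 0 members differed from Tnnt2::Cre under every one of these.

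Mutants and controls share replicate numbers, but same-numbered libraries did not deviate together (correlations from -0.04 to 0.18), so they were not treated as pairs. In Mesp1Cre they also share a number in the sample descriptions (replicates 1 and 2 the same one), and the labels do not say whether it marks a litter. With the replicate block 22 members were called in Mesp1Cre (23 with that description number as the block), 7 in Mef2cAHF::Cre and 1 in Tnnt2::Cre. With 3 libraries a group, shares could not reach an exact p below 0.1. Members with few reads (Pfkfb4, Eno2 and Slc2a4) are the least precise.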
